A study of Mus musculus with 82 samples.

Results

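The receptors for glutamate, GABA and glycine carry nearly all fast synaptic transmission in the retina and in the superior colliculus (SC), and their subunit genes were followed here in both tissues. Members were the protein-coding genes whose symbol names a subunit of an AMPA, NMDA, kainate, delta, metabotropic glutamate, GABA-A, GABA-B or glycine receptor, with *Grm6* left out, which gave 51 genes of 43629 identifiers in the count tables. Of these, 18 encode ionotropic glutamate receptor subunits, 7 metabotropic glutamate receptors, 19 GABA-A receptor subunits (3 of them rho subunits), 2 GABA-B receptor subunits and 5 glycine receptor subunits. The choice used names alone and no measured value.

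The study asked how chemogenetic activation of collicular neurons acts on retinal ganglion cells (RGCs) in a mouse model of glaucoma. In “OHT+DREADD” mice, magnetic microbeads injected into the right eye induced ocular hypertension (OHT) and the left SC had received an AAV2/7 vector for the activating receptor hM3D(Gq), a DREADD, under a CaMKIIα promoter. “OHT” mice had the beads and a null vector that encoded only a fluorescent protein, “SHAM+DREADD” mice an injection of vehicle in the eye and the DREADD vector, and “SHAM” mice vehicle and the null vector. All mice, the unstimulated ones included, received the DREADD ligand CNO, were about 10 weeks old and carried the genotype label WT. Tissue was taken 5 weeks after the eye injection, the time the labels give for both treatments. Per the methods of the study the mice carried Vglut2-ires-Cre and Thy1-STOP-YFP, so that YFP marked cells with a history of Vglut2 expression and an active Thy1 promoter. Each sorted RGC sample held the living YFP+ cells of 1 retina, and each SC sample was a lysate of 1 colliculus with neurons and glia. Each tissue had 10 OHT+DREADD, 11 OHT, 10 SHAM+DREADD and 10 SHAM samples.

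RGC libraries were made with Smart-Seq2, which reads whole transcripts, and held 3534776 to 6889040 counts. SC libraries were made with QuantSeq, which reads the 3′ end of each transcript, and held 1766207 to 4239835 counts. Levels are therefore given as CPM, the counts of a gene scaled to the library total, and levels of different genes are compared as CPM per kb of exon in the RGC sort and as plain CPM in the SC. By *Xist* and Y-linked genes, 5 of 10 OHT+DREADD, 2 of 11 OHT, 10 of 10 SHAM+DREADD and 2 of 10 SHAM animals were female, so sex was not balanced over the groups. The labels of 1 SHAM colliculus (replicate 1) contradict each other, so results that rest on it were also computed without it. RGC SHAM replicates 1 to 4 had 15097 to 15395 genes detected, and replicates 5 to 10 had 13414 to 14250. Fits with RGC SHAM samples were therefore also run without replicates 1 to 4. In the sorted samples, 10 RGC markers summed to 362 to 1629 CPM and 10 rod markers to 11187 to 95227 CPM, while 9 bipolar and 8 amacrine markers summed to 1258 to 5948 and 320.5 to 6676 CPM. Transcripts of other retinal cells were thus present in every sorted library, and in bulk samples fewer cells of a type and less RNA per cell cannot be told apart.

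Ionotropic glutamate receptors are tetramers that open a cation pore. AMPA receptors carry the fast current, NMDA receptors need depolarization as well as glutamate, and kainate receptors act on both sides of the synapse. GABA-A receptors are pentamers, usually of alpha, beta and gamma subunits, and glycine receptors combine alpha subunits with the beta subunit, and both pass chloride. GABA-B and metabotropic glutamate receptors signal through G proteins. In the retina, OFF bipolar cells receive photoreceptor glutamate through AMPA and kainate receptors, rho subunits form the GABA-C type receptors of bipolar cell terminals, and RGCs receive glutamate, GABA and glycine through most of these families. The superficial SC is the main target of mouse RGCs and is rich in GABAergic neurons.

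In the RGC sort, GABA-A subunits were the most abundant members. Per kb of exon, *Gabrr2* and *Gabrr1* led at 144 ± 60.6 and 142 ± 50.6 CPM per kb (SD over 41 libraries). *Gabra3*, an alpha subunit, made up 28.7 ± 7.0% of alpha subunit transcripts per kb. *Gabra6*, known from cerebellar granule cells, and *Gabrp* had 0 counts in all 41 libraries, which allows up to 3 counts over all of them. *Gabre* had 12 counts in 3 libraries and *Gabrq* 31 counts in 5.

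The rho subunit genes lie side by side on chromosome 4, *Gabrr2* at chr4:33062999-33095865 and *Gabrr1* at chr4:33132521-33163588 (mm10, plus strand), and had nearly the same level in the sort. *Gabrr1* made up 49.5 ± 3.8% and *Gabrr2* 49.4 ± 4.0% of the rho transcripts per kb, and *Gabrr3* 1.0 ± 0.7%. Because both genes followed the bipolar markers over the libraries, the RefSeq sequence upstream of their starts is shown, 5′ to 3′ on the plus strand (GRCm38.p6, chr4:33132306-33132520 for *Gabrr1* and chr4:33062862-33062998 for *Gabrr2*), with the TAATCC core bound by Crx and Otx2, homeobox factors of photoreceptors and bipolar cells, in capitals on either strand.
Gabrr1: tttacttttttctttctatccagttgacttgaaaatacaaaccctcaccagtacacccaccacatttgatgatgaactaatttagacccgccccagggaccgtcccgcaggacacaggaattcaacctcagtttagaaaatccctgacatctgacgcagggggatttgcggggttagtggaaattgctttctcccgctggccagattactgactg
Gabrr2: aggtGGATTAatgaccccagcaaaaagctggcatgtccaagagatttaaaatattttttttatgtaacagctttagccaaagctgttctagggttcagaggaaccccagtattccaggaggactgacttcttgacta
The core occurred once in the *Gabrr2* stretch, as GGATTA, 133 bases before its end, and was not found in the *Gabrr1* stretch. Among the 250 bases upstream of all 32851 RefSeq starts, 6.25% hold TAATCC or GGATTA, and of 35 members with an entry only *Gabrr2* and *Gabra2* did. No member's window held TGACGTCA, the cAMP response element (its own reverse complement, in 1.55% of all windows), or TGACTCA or TGAGTCA, the AP-1 site (4.46%). A match describes letters, not binding.

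*Glrb*, the beta subunit that links glycine receptors to gephyrin, averaged 42.3 CPM per kb and 77.5 ± 8.3% of glycine receptor transcripts in the sort, ahead of *Glra2* at 7.55 and *Glra1* at 3.47 CPM per kb. Among kainate subunits *Grik1* (GluK1, chr16:87895900-88290265) took 94.9 ± 3.4% per kb, at 24.1 CPM per kb. *Gria2*, the AMPA subunit that keeps calcium out, averaged 10.4 CPM per kb, ahead of *Gria1* at 4.90, *Gria4* at 3.77 and *Gria3* at 1.66 CPM per kb. Among NMDA subunits the obligatory *Grin1* averaged 2.73 and *Grin2b* 0.42 CPM per kb, and *Grin2a* had 69 counts in 8 of 41 libraries. The place of *Grin1* depends on the length used. Per kb of the longest coding transcript it stood at 6.18 CPM per kb, below *Gria2* at 15.5. On that scale it was above *Gria1* at 5.34, *Gria4* at 4.37 and *Gria3* at 3.15 CPM per kb. Of metabotropic receptors *Grm7*, which sits at presynaptic release sites, was highest at 3.48 CPM per kb. GABA-B subunits *Gabbr1* and *Gabbr2* averaged 6.12 and 3.82 CPM per kb, and *Grid1*, a delta receptor gene, 0.73 CPM per kb.

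Over the groups of the sort, leading members of the receptor families had overlapping levels. Values are the lowest, median and highest library of each group, here and for all groups that follow. *Gabrr2* was at 146, 313 and 676 CPM in OHT+DREADD, 211, 275 and 346 CPM in OHT, 156, 285 and 699 CPM in SHAM+DREADD and 115, 291 and 471 CPM in SHAM. *Glrb* was at 53.7, 185 and 239 CPM in OHT+DREADD, 146, 221 and 247 CPM in OHT, 144, 194 and 247 CPM in SHAM+DREADD and 109, 217 and 267 CPM in SHAM. *Gabbr1* was at 27.9, 38.7 and 62.4 CPM in OHT+DREADD, 24.0, 45.1 and 72.7 CPM in OHT, 11.9, 58.8 and 81.3 CPM in SHAM+DREADD and 30.3, 43.0 and 70.9 CPM in SHAM. All groups of these genes overlapped, and *Gabrr2* had the widest range among them. *Grin1* was at 11.1, 27.3 and 51.0 CPM in OHT+DREADD, 11.5, 20.5 and 36.0 CPM in OHT, 11.3, 28.7 and 59.4 CPM in SHAM+DREADD and 5.52, 23.7 and 74.1 CPM in SHAM. *Grid1*, a gene of the delta receptors, was at 0.22, 1.86 and 16.01 CPM in OHT+DREADD, 0, 2.82 and 15.2 CPM in OHT, 1.47, 3.43 and 9.01 CPM in SHAM+DREADD and 0.28, 3.03 and 10.6 CPM in SHAM.

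In the SC, levels are CPM of 3′ reads, which do not scale with transcript length. *Gria2* led at 536 ± 76.5 CPM, and *Gabbr1* was at 366 ± 48.0 and *Gria1* at 361 ± 57.2 CPM (SD over 41 libraries). *Gabbr1* and *Gria1* differed by less than their SD. *Gabbr2*, the partner that *Gabbr1* needs to reach the membrane, averaged 164 CPM and *Grm5* 159 CPM. *Gabrb1* made up 42.1 ± 6.2% of the beta subunit transcripts, and *Grin2b*, *Grin1* and *Grin3a* shared the NMDA subunits (36.9 ± 3.3, 31.4 ± 4.3 and 22.4 ± 3.3%). Kainate transcripts, nearly all *Grik1* in the sort, were spread over 5 genes in the SC, from *Grik2* at 28.0 ± 5.5% to *Grik3* at 12.6 ± 4.4%. The rho genes were near the floor, *Gabrr2* at 5.81 and *Gabrr1* at 2.87 CPM with *Gabrr3* at 0 counts. *Gabrp* and *Gabra6* had 4 and 5 counts in all, and *Gabrq*, *Gabrd* and *Gabre* averaged 4.24, 2.06 and 0.68 CPM. *Gabra4* and *Gabrb1* overlap in exons on opposite strands, and exons of *Grin1*, *Grin2b*, *Grin2c*, *Grin2d*, *Grin3b*, *Grm2*, *Grm7*, *Gabra5*, *Gabrr3* and *Glra1* also overlap another annotated gene on the opposite strand. The strand setting of the counts is not given in the sources used here, so the values of these members are uncertain in both tissues. The tissues were prepared with different kits, and no fold change between them was computed.

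The leading members of the SC families also overlapped across groups. *Gria2* was at 314, 516 and 701 CPM in OHT+DREADD, 487, 533 and 596 CPM in OHT, 394, 497 and 641 CPM in SHAM+DREADD and 490.4, 577 and 683 CPM in SHAM. *Grm5*, the main group I metabotropic receptor of forebrain and midbrain neurons, was at 93.4, 151 and 212 CPM in OHT+DREADD, 119, 168 and 194 CPM in OHT, 118, 161 and 192 CPM in SHAM+DREADD and 149, 172 and 181 CPM in SHAM. *Gabbr1* was at 277, 359 and 442 CPM in OHT+DREADD, 285, 361 and 465 CPM in OHT, 254, 346 and 387 CPM in SHAM+DREADD and 339, 382 and 431 CPM in SHAM. For *Grm5* and *Gabbr1* the SHAM libraries had a narrower range than any other group, for *Gria2* the OHT libraries. *Glrb* was at 90.6, 138 and 200.1 CPM in OHT+DREADD, 112, 135 and 171 CPM in OHT, 106, 130.3 and 183 CPM in SHAM+DREADD and 123, 138 and 160.1 CPM in SHAM. Its lowest and its highest library were both in OHT+DREADD. *Grik2*, the leading kainate gene, was at 11.9, 20.9 and 28.0 CPM in OHT+DREADD, 13.0, 17.3 and 25.0 CPM in OHT, 11.4, 16.7 and 20.99 CPM in SHAM+DREADD and 13.3, 18.8 and 20.8 CPM in SHAM. *Gabrr2* was at 3.02, 5.62 and 10.3 CPM in OHT+DREADD, 2.21, 5.67 and 11.4 CPM in OHT, 0.92, 5.50 and 7.69 CPM in SHAM+DREADD and 3.64, 6.16 and 10.6 CPM in SHAM. *Gabrq*, the theta subunit of GABA-A receptors, was at 1.13, 3.81 and 7.34 CPM in OHT+DREADD, 1.28, 4.65 and 7.29 CPM in OHT, 1.53, 3.62 and 8.28 CPM in SHAM+DREADD and 1.90, 4.88 and 6.29 CPM in SHAM.

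**Figure D1:**
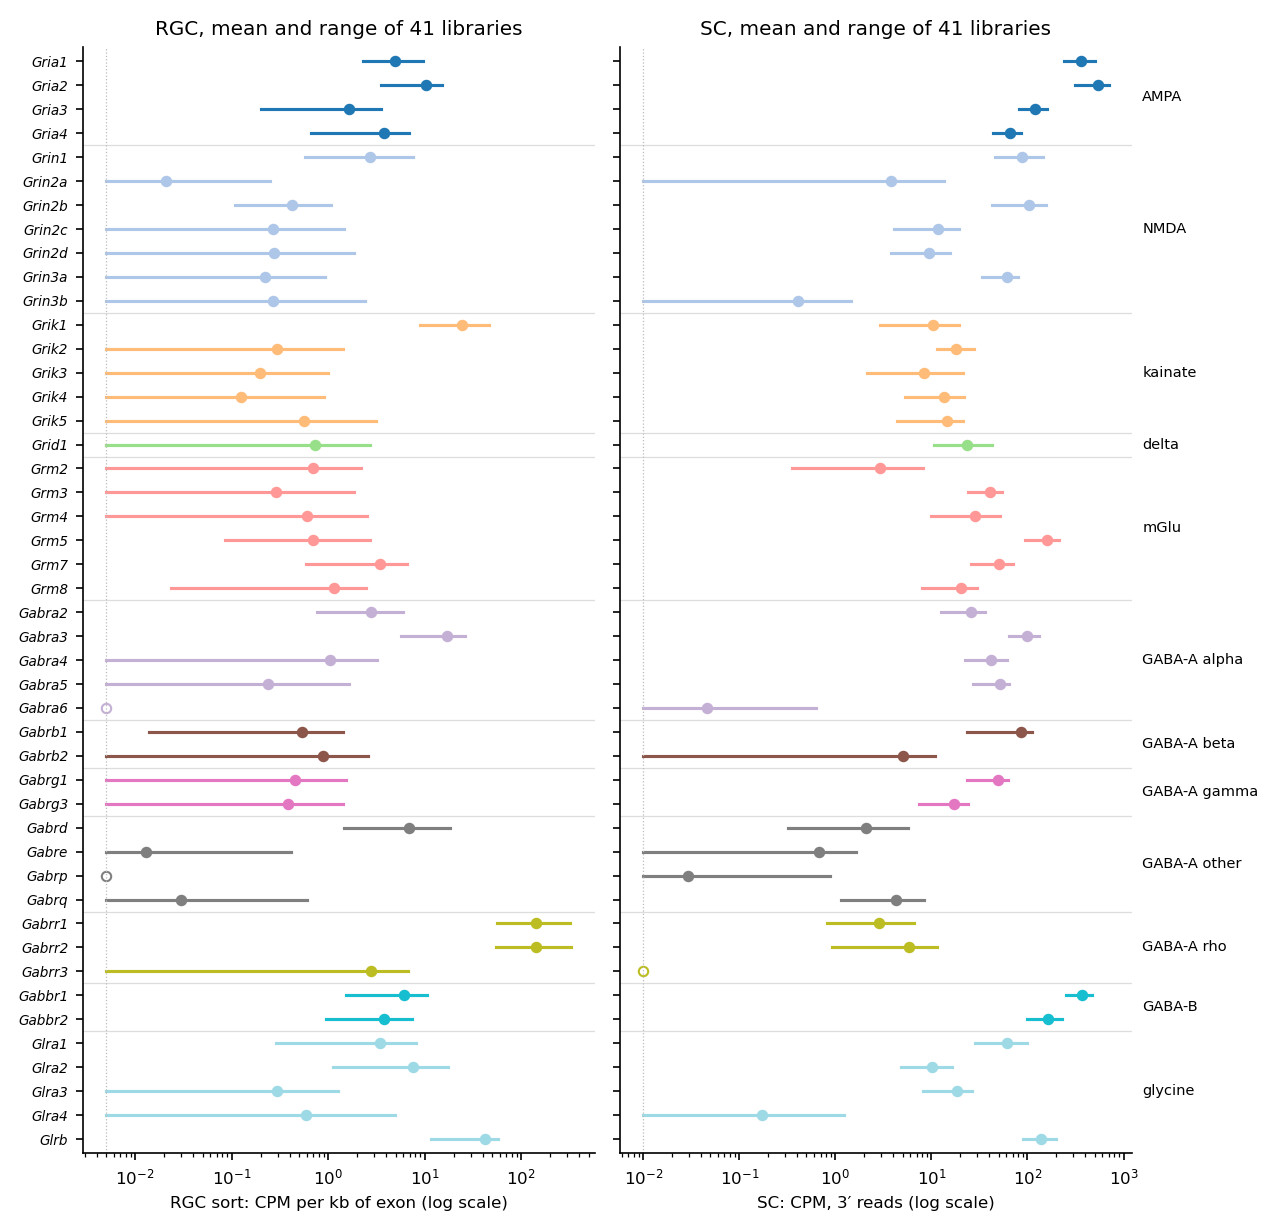
Level of 46 members in the RGC sort (left, CPM per kb of exon) and in the SC (right, CPM), on log axes. Points are means over 41 libraries, bars run from the lowest to the highest library, and values below the dotted line, 0 included, are drawn on it, with an open circle for 0 in all libraries. *Gabrr1* and *Gabrr2* are the highest on the left at 142 and 144 CPM per kb and lie at 2.87 and 5.81 CPM on the right.

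In the sort, rho subunits followed the bipolar markers and *Gabra3* the amacrine markers. At an adjusted p of 0.05, 4 of 42 members (9.52%) had a positive r with the bipolar markers and 6 a negative r. For the amacrine markers 11 (26.2%) were positive and 2 negative, and for the rod markers 2 (4.76%) and 6. Of all genes of at least 1 CPM, 6.39%, 7.01% and 3.32% reached the lowest positive r of these members. No such share was computed for the negative r, so those counts cannot be set against all genes. The median r of the members was -0.07 for bipolar, 0.21 for amacrine and -0.12 for rod markers. Over all such genes it was 0.06, -0.07 and 0.07. Over the 41 RGC libraries, as deviations from the group means of log2(CPM + 1), *Gabrr1* followed the summed bipolar markers with Pearson's r = 0.86 and Spearman's rho = 0.76, and *Gabrr2* with r = 0.82 and rho = 0.76 (permutation p = 1e-05 for each, the smallest that 100000 permutations can give, and adjusted p = 0.000282 for r over 480 relations in both tissues). Without the 2 libraries farthest from the median, r was 0.79 and 0.75. Within single groups r ranged from 0.44 to 0.96 for *Gabrr1* and from -0.09 to 0.95 for *Gabrr2*. *Grik1* followed the same markers more loosely (r = 0.49, permutation p = 0.00089, adjusted p = 0.00574, and rho = 0.49, permutation p = 0.00143), with r = 0.44 without the 2 farthest libraries and -0.13 to 0.86 within groups. *Gabra3* followed the amacrine markers (r = 0.73, rho = 0.68, permutation p = 1e-05 each, adjusted p = 0.000282 for r), with r = 0.74 without the 2 farthest libraries and 0.45 to 0.94 within groups. It ran against the rod markers (r = -0.70, rho = -0.64, permutation p = 1e-05 each, adjusted p = 0.000282 for r), with r = -0.71 without the 2 farthest and -0.83 to -0.26 within groups. Of 42 members tested against the RGC markers only *Grm2* passed an adjusted p of 0.05 (r = 0.44, permutation p = 0.00437, adjusted p = 0.0194, and rho = 0.42, permutation p = 0.00704), with r = 0.44 without the 2 farthest and 0.36 to 0.56 within groups, and 0.716% of all genes of at least 1 CPM had an r as high. Both values of each pair share the library total, to which the rod markers gave more than the other marker lists named here.

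**Figure D2:**
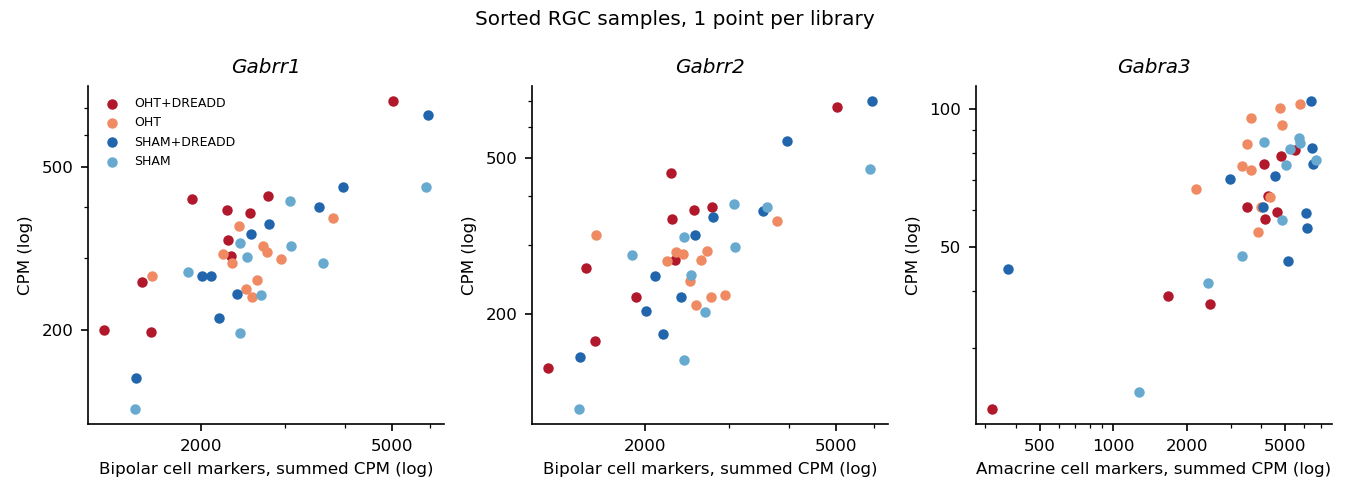
CPM of *Gabrr1*, *Gabrr2* and *Gabra3* in each of the 41 RGC libraries against the summed CPM of 9 bipolar or 8 amacrine markers, both axes log, 1 point per library, coloured by group. *Gabrr1* runs between 129 and 725 CPM and climbs with the bipolar markers in all groups, while 2 libraries with amacrine marker sums of 320.5 (OHT+DREADD) and 370.5 CPM (SHAM+DREADD) stand apart on the right.

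In the SC, 26 of 45 members (57.8%) followed the 4 summed inhibitory neuron markers (*Gad1*, *Gad2* and *Slc32a1* among them) at an adjusted p of 0.05, all with a positive r of at least 0.41. Of all 15119 genes of at least 1 CPM on average, the markers left out, 17.2% reached the lowest r of these members. *Grm7* had r = 0.82 and rho = 0.76, and *Grin2b* r = 0.80 and rho = 0.84 (permutation p = 1e-05 each, adjusted p = 0.000282 for r, 41 libraries). Without the 2 farthest libraries r was 0.75 for *Grm7* and 0.78 for *Grin2b*. Within groups r ranged from 0.45 to 0.90 for *Grm7* and from -0.13 to 0.93 for *Grin2b*. In all, 29 members (64.4%) followed the neuron markers and 22 (48.9%) the astrocyte markers with a positive r, where 18.2% and 10.2% of all such genes reached the lowest r of these members.

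The effect of ocular hypertension on RGC-sorted members was addressed by OHT against SHAM. None of 47 members tested was called by edgeR's quasi-likelihood test at an adjusted p of 0.1, where 0.0686% of all 17491 genes were. At an unadjusted p under 0.05, 1 member was higher and 1 lower, against 2.39% and 3.38% of all genes. *Grin2a* (GluN2A, chr16:9567898-9995560) had 53 counts in 5 of 11 OHT libraries, the highest at 4.52 CPM, against 0 counts in 10 SHAM libraries. Its pooled level was at least 15.2-fold higher in OHT, taking 3 counts over the SHAM group as the floor. It is the 1 higher member and passed the filter on low counts through the OHT libraries alone, where it is high, so it had to differ and its p is no evidence of a change. The other 6 OHT libraries had none of it, so both groups overlap at 0. *Gabrd*, the delta subunit of GABA-A receptors outside the synapse, was at 4.24, 12.4 and 28.0 CPM in OHT (lowest, median and highest library) and at 13.4, 18.9 and 52.8 CPM in SHAM. Its log2 fold change was -0.81 ± 0.28 (p = 0.00610, adjusted p = 0.238), and the groups overlapped. *Gria4*, an AMPA subunit, was at 10.8, 19.9 and 34.5 CPM in OHT and 15.8, 24.6 and 43.3 CPM in SHAM (-0.43 ± 0.23, adjusted p = 0.945).

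Stimulation under hypertension, OHT+DREADD against OHT, gave no called member of 48 either, where 0.0874% of all genes were called. At an unadjusted p under 0.05, 2 were higher and 2 lower, against 5.02% and 3.45% of all genes. Without 1 library at a time 1 to 4 were higher, with 4 without OHT replicate 7 or OHT+DREADD replicate 9, and 2 to 4 lower, with 4 without OHT+DREADD replicate 10. *Grik1*, the kainate subunit of OFF bipolar cells, was at 112, 190.1 and 314 CPM in OHT+DREADD and at 100.1, 130.1 and 188 CPM in OHT. Its log2 fold change was 0.63 ± 0.17 (p = 0.000569, adjusted p = 0.199), 5 OHT+DREADD libraries lay above every OHT library, and DESeq2 called it at an adjusted p of 0.0683. *Gabrr1* was at 198, 360.4 and 725 CPM against 242, 298 and 376 CPM (log2 fold change 0.35 ± 0.17, adjusted p = 0.566). The bipolar markers summed to 1258, 2273 and 5037 CPM in OHT+DREADD and to 1582, 2563 and 3770 CPM in OHT. With that sum as a covariate, chosen after seeing the data, *Grik1* stood at 0.68 (p = 7.2e-05, adjusted p = 0.322). The 10 RGC markers summed to 446, 578 and 1173 CPM in OHT+DREADD and to 415, 677 and 1629 CPM in OHT, and all 10 had a log2 fold change below 0, 2 of them at an unadjusted p under 0.05. All 8 Müller glia markers were above 0 and 3 of them at that p, with sums of 3144, 4357 and 8503 CPM in OHT+DREADD and 2247, 3208 and 5222 CPM in OHT. Of 10 rod markers 8 were above 0 and 1 at that p. The part of the RGC and Müller glia markers in these values was not tested. *Gria2* was at 55.0, 119 and 206 CPM in OHT+DREADD against 109.5, 172 and 224 CPM in OHT (-0.45 ± 0.19, adjusted p = 0.441). *Grik3* had 22 counts in 5 of 10 OHT+DREADD libraries and 136 counts in 10 of 11 OHT libraries. It is 1 of the 2 lower members and passed the filter through the OHT libraries alone, so its p is not given.

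Stimulation without hypertension, SHAM+DREADD against SHAM, called 0 of 46 members against 0.0115% of all genes. At an unadjusted p under 0.05, 1 was higher and 1 lower, against 2.2% and 2.96% of all genes. *Grm7* was at 20.3, 25.4 and 36.2 CPM in SHAM+DREADD and at 9.05, 17.0 and 25.3 CPM in SHAM (0.69 ± 0.24, p = 0.0074, adjusted p = 0.313). *Gabrg3*, a minor gamma subunit, was at 0, 1.89 and 3.81 CPM against 1.00, 4.76 and 13.7 CPM (-1.61 ± 0.62, adjusted p = 0.495). *Grik4* had 16 counts in 3 SHAM+DREADD libraries against 89 counts in 8 SHAM libraries, and passed the filter through SHAM alone. Its log2 fold change was -1.602, and -1.10 without SHAM replicates 1 to 4. All 10 SHAM+DREADD animals were female, and with sex as a covariate *Grm7* had p = 0.196 and *Gabrg3* p = 0.177, and *Grik4* stood at -0.36.

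Over all 4 RGC groups, stimulated samples were set against unstimulated ones with OHT in the model. None of 48 members was called, against 2.42% of all genes, with 2 higher and 2 lower at an unadjusted p under 0.05 (4.25% and 4.39% of all genes). *Grik1* was again first (0.39 ± 0.14, p = 0.00649, adjusted p = 0.188). It was ahead of *Glra4*, a glycine receptor alpha subunit (1.502 ± 0.65, p = 0.0238, adjusted p = 0.415), and *Grik4* (-1.19 ± 0.54, adjusted p = 0.470). With sex as a covariate *Grik1* stood at 0.32 (p = 0.0675), *Glra4* at 1.32 (p = 0.0629) and *Grik4* at -0.61 (p = 0.307). For OHT against no OHT with stimulation in the model, 0 members were called against 2.9% of all genes, and 2 were higher and 2 lower at an unadjusted p under 0.05 (3.91% and 4.74% of all genes). *Gabrd* led at -0.53 ± 0.20 (p = 0.0121, adjusted p = 0.267), and *Gria4* stood at -0.38 ± 0.18 (adjusted p = 0.533). The 2 higher members were *Gabrq*, with 16 counts in 2 OHT+DREADD and 10 in 2 OHT libraries against 5 in 1 SHAM+DREADD and 0 in SHAM libraries, and *Grin2a*. Both passed the filter through the libraries with OHT alone, so their p is not given. These fits share samples with the pairwise ones.

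The interaction of OHT and stimulation asked whether stimulation acted differently in hypertensive retinas. None of 48 members was called, against 2.43% of all genes, with 0 higher and 3 lower at an unadjusted p under 0.05 (5.46% and 4.6% of all genes). The 3 were *Grin2a*, *Grm7* (-1.12 ± 0.39, adjusted p = 0.162) and *Gria2* (-0.75 ± 0.27, adjusted p = 0.174). *Gria2* had a median of 119 CPM in OHT+DREADD against 172 CPM in OHT, but 206 CPM in SHAM+DREADD against 166 CPM in SHAM. *Grm7* had medians of 17.3 CPM in OHT+DREADD against 19.9 CPM in OHT and 25.4 CPM in SHAM+DREADD against 17.0 CPM in SHAM. *Gria2* ran against the rod markers (r = -0.61, permutation p = 3e-05, adjusted p = 0.000533, and rho = -0.66, permutation p = 2e-05), with r = -0.53 without the 2 farthest and -0.88 to -0.32 within groups. With the rod sum as a covariate the interaction of *Gria2* stood at -0.55 (p = 0.0155, adjusted p = 0.278). Without SHAM replicates 1 to 4 it stood at -0.52 (p = 0.0667), and that of *Grm7* at -1.10 (p = 0.0132). All 10 SHAM+DREADD but only 2 of 10 SHAM animals were female, so sex was not balanced in this contrast. With sex as a covariate *Gria2* stood at -0.64 (p = 0.0217, adjusted p = 0.359) and *Grm7* at -0.97 (p = 0.0214, adjusted p = 0.357). For *Grin2a* the OHT libraries hold 53 of the 69 counts and the SHAM libraries 0. It had more than 5 reads in 4 OHT and 0 SHAM libraries. It thus entered the fit largely through the group where it is high, so its p is not given. Its fitted fold depends on the prior count.

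**Figure D3:**
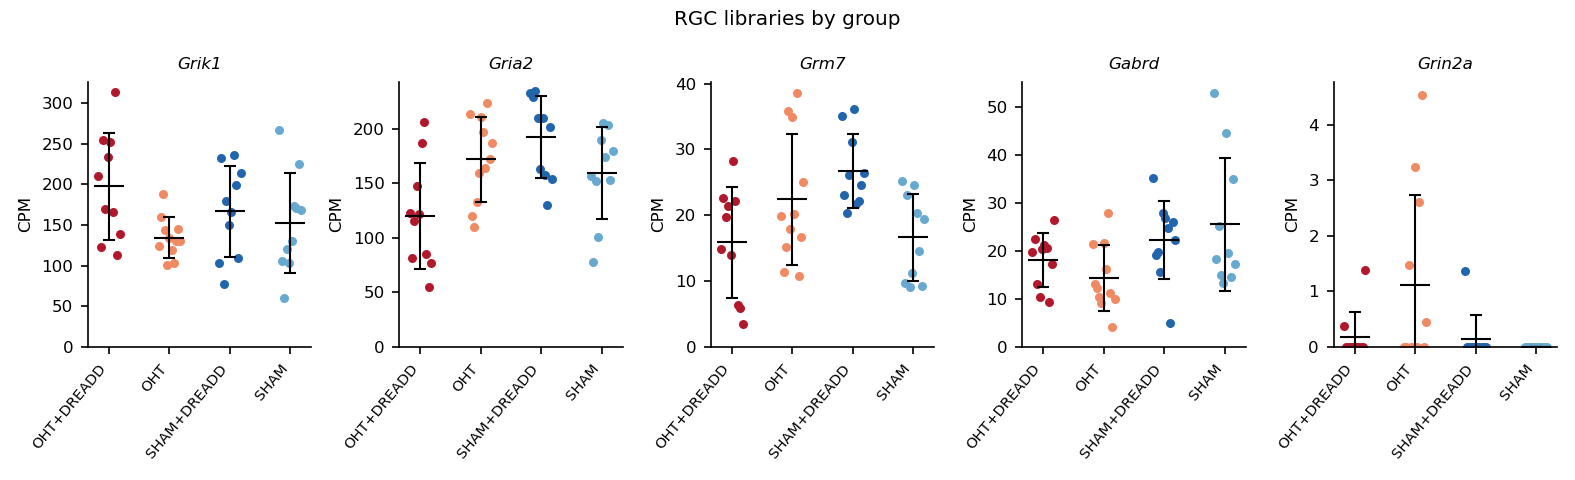
CPM of *Grik1*, *Gria2*, *Grm7*, *Gabrd* and *Grin2a* in each RGC library by group, 1 point per library, with the mean and SD in black. *Grik1* reaches 314 CPM in OHT+DREADD against 188 CPM in OHT, *Grin2a* has no read in any of the 10 SHAM libraries, and the groups overlap in every panel.

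The comparison with the most members at an unadjusted p under 0.05 was SHAM+DREADD against SHAM in the SC. Again 0 of 45 members were called by edgeR, where 0.11% of all 15433 genes were, yet 13 members (28.9%) were lower at an unadjusted p under 0.05 and 1 was higher, against 4.92% and 4.62% of all genes. Among members of at least 10 CPM on average 11 of 36 (30.6%) were lower, against 5.86% of such genes. In all, 36 of 45 members had a log2 fold change below 0, with a median of -0.14 against 0.0045 over all genes. Among the 13 were the AMPA genes *Gria1* and *Gria4*, the NMDA genes *Grin1* and *Grin2b*, the metabotropic glutamate receptor genes *Grm4* and *Grm7*, the GABA-A genes *Gabrb2* and *Gabrr1*, and both GABA-B genes, *Gabbr1* and *Gabbr2*. No kainate or glycine receptor gene was among them.

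*Grin2b* (GluN2B, chr6:135713233-136173511) was at 49.9, 97.8 and 111.0 CPM in SHAM+DREADD and at 96.8, 121 and 130.2 CPM in SHAM, a log2 fold change of -0.34 ± 0.10 (p = 0.00155, adjusted p = 0.275). *Grm7* (chr6:110645581-111567230) was at 27.4, 46.9 and 57.7 CPM against 44.2, 58.1 and 70.4 CPM (-0.30 ± 0.10, adjusted p = 0.361). In both the groups overlapped, and 4 *Grin2b* and 4 *Grm7* values of the 10 SHAM+DREADD libraries lay below the lowest SHAM library. Unstimulated OHT colliculi had *Grin2b* medians of 80.7 CPM in 2 females and 100.5 CPM in 9 males. OHT+DREADD colliculi had 116 CPM in 5 females and 95.4 CPM in 5 males. For *Grm7* the female and male medians were 35.2 and 55.4 CPM in OHT and 51.9 and 40.1 CPM in OHT+DREADD. *Gabbr2* was at 99.6, 147 and 230.02 CPM against 157, 169 and 224 CPM (-0.24 ± 0.10, adjusted p = 0.438). *Grm4*, a receptor of group III, stood at -0.35 ± 0.15, *Grin1* at -0.26 ± 0.11, *Gria4* at -0.20 ± 0.09, *Gria1* at -0.16 ± 0.08 and *Gabbr1* at -0.14 ± 0.06. *Gabrb2* (-0.41 ± 0.20) and *Gabrr1* (-0.50 ± 0.23) averaged 4.86 and 2.96 CPM. None of the 13 passed an adjusted p of 0.1.

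The inhibitory neuron markers moved with this result. Their sum was 585, 907 and 958 CPM in SHAM+DREADD and 942, 1049.7 and 1180.5 CPM in SHAM. The 6 neuron markers summed to 2545, 3343 and 3619 CPM in SHAM+DREADD and 3473, 3598 and 3934 CPM in SHAM, and the 6 astrocyte markers to 1405, 1715 and 1847 CPM in SHAM+DREADD and 1591, 1722 and 1946 CPM in SHAM. The 7 microglia markers summed to 417, 482 and 675 CPM in SHAM+DREADD and 344, 456 and 593 CPM in SHAM, with 5 of 7 higher at an unadjusted p under 0.05. The 6 oligodendrocyte markers summed to 5670, 6782 and 7936 CPM in SHAM+DREADD and 5330, 6531 and 7553 CPM in SHAM, with 2 of 6 higher. The part of these marker lists in the result was not tested. With the log2 of the inhibitory sum as a covariate, an alternative chosen after seeing the data, 0 of 45 members were lower at an unadjusted p under 0.05, and *Grin2b* stood at -0.04 and *Grm7* at -0.03. The highest SHAM+DREADD sum, 958 CPM, was little above the lowest SHAM sum, 942 CPM. This covariate thus nearly separates the groups, and the fit cannot tell the marker sum from the group. With sex as a covariate 4 were lower, and *Grin2b* stood at -0.42 (p = 0.0172). All 10 SHAM+DREADD but only 2 of 10 SHAM colliculi were female. That fit thus rests on 2 female SHAM colliculi, and stimulation and sex can hardly be told apart here. Leaving out 1 library at a time left 8 to 15 lower, with 8 without SHAM+DREADD replicate 9, and without the SHAM colliculus of conflicting labels 10 were lower.

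**Figure D4:**
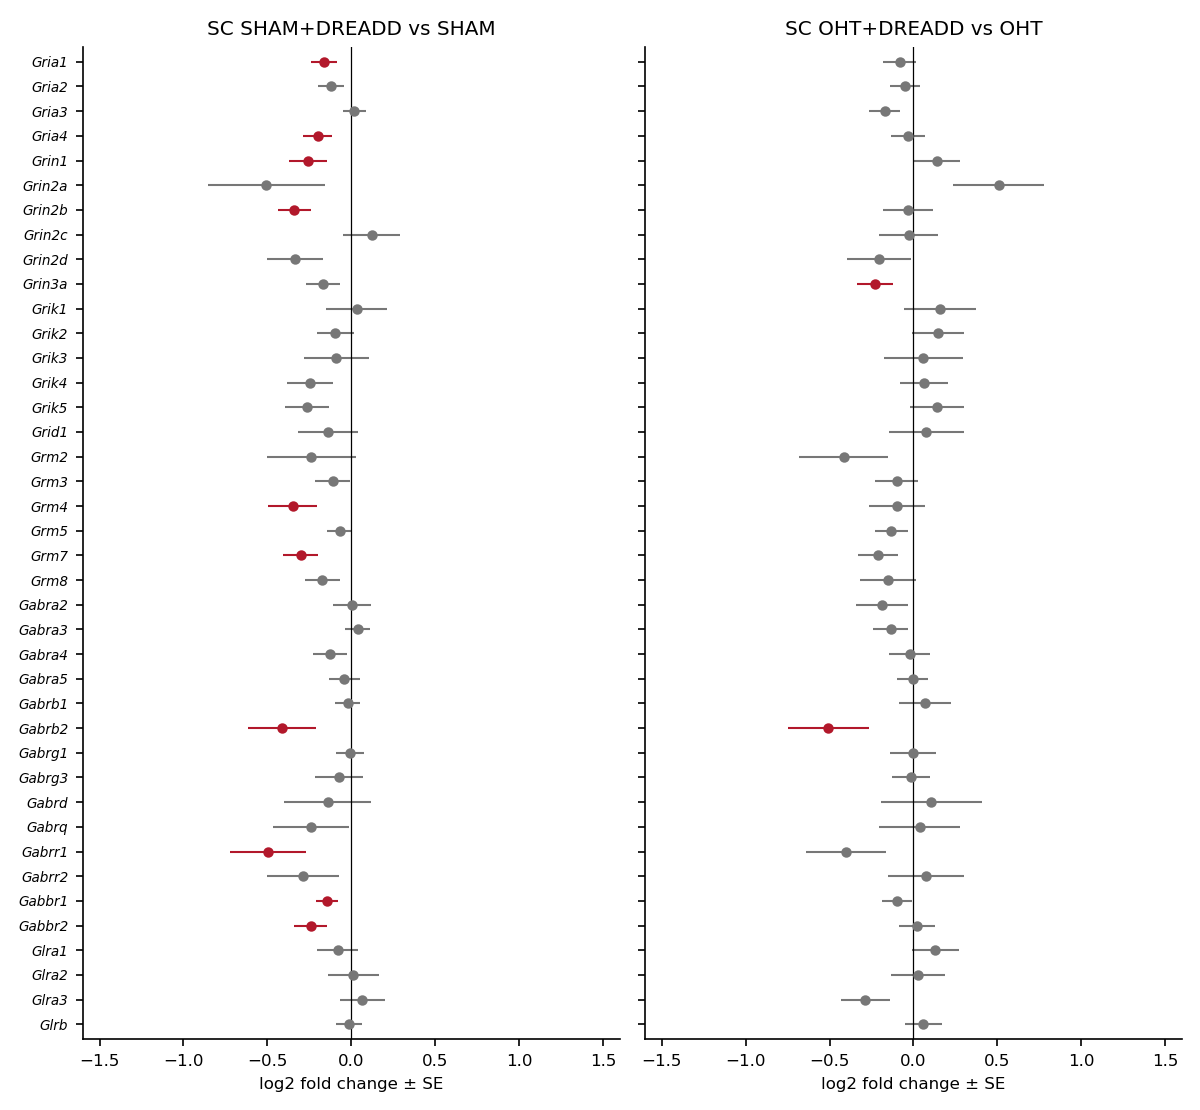
Log2 fold change ± SE of 40 members tested in SC, by family from AMPA at the top to glycine at the bottom, for SHAM+DREADD against SHAM (left) and OHT+DREADD against OHT (right), with red for an unadjusted p under 0.05. On the left 33 of 40 points lie below 0 and 10 of them are red, on the right 24 lie below 0 and 2 of them are red.

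Stimulation under hypertension, OHT+DREADD against OHT, had fewer members under p = 0.05. Here 0 of 45 members were called (0.0956% of all genes), with 1 higher and 2 lower at an unadjusted p under 0.05, against 4.31% and 3.08% of all genes, and a median log2 fold change of -0.02. Leaving out 1 library at a time left 1 or 2 higher and 0 to 5 lower, with 0 lower without OHT replicate 6, 7 or 9 or OHT+DREADD replicate 9 or 10, and 5 without OHT replicate 11. *Grin3a*, an NMDA subunit that lowers calcium flux, was at 33.7, 55.6 and 78.5 CPM in OHT+DREADD and at 57.9, 64.7 and 72.5 CPM in OHT (-0.23 ± 0.11, adjusted p = 0.653), and at -0.35 with sex as a covariate (p = 0.00235). *Gabrb2* was at 0, 4.54 and 6.96 CPM against 2.41, 6.34 and 8.41 CPM (-0.51 ± 0.24, adjusted p = 0.659). The inhibitory marker sums were 641, 1012.5 and 1207 CPM in OHT+DREADD and 576, 883 and 1171 CPM in OHT. Immediate early genes, which neurons induce when active, serve as the check of stimulation, and 5 of 10 were called higher in each of these comparisons. *Fos* rose by 1.87 ± 0.23 on the log2 scale in OHT+DREADD over OHT and by 1.58 ± 0.16 in SHAM+DREADD over SHAM.

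The interaction test in the SC called 0 of 45 members (0.0433% of all genes), with 3 higher and 0 lower at an unadjusted p under 0.05 (3.97% of all genes in each direction). Among the 3 were *Grin2a* (1.01 ± 0.47, adjusted p = 0.602) and *Grin1* (0.39 ± 0.19, adjusted p = 0.616). Without the SHAM colliculus of conflicting labels 2 were higher, with *Grin2a* at 0.93 (p = 0.0562) and *Grin1* at 0.41 (p = 0.0392). With sex as a covariate *Grin2a* stood at 0.95 (p = 0.0579) and *Grin1* at 0.41 (p = 0.0413). Of the 4 inhibitory neuron markers 3 were also higher at an unadjusted p under 0.05, and with their sum as a covariate, chosen after seeing the data, *Grin2a* stood at 0.35 (p = 0.469) and *Grin1* at 0.027 (p = 0.877).

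The effect of hypertension alone in the SC, OHT against SHAM, called 0 of 45 (0.0193% of all genes), with 0 higher and 1 lower at an unadjusted p under 0.05 (2.77% and 2.18% of all genes). *Gria3* and *Gabrg3* stood at 0.14 ± 0.08 and 0.205 ± 0.13 (adjusted p = 0.956 each). For OHT against no OHT over all 4 groups, 0 members and 0% of all genes were called, and *Gabrg3* alone passed an unadjusted p of 0.05 (0.23 ± 0.09, adjusted p = 0.995), where 2.83% of all genes were higher and 1.66% lower. *Grik4* and *Gabrb1* stood at 0.17 ± 0.10 and -0.15 ± 0.09. For stimulated against unstimulated SC over all 4 groups, 0 members were called (0.148% of all genes), and 0 were higher and 7 lower at an unadjusted p under 0.05, against 4.58% and 3.54% of all genes. *Grm7* led at -0.26 ± 0.08 (p = 0.00200, adjusted p = 0.352), with *Gabrb2* at -0.47 ± 0.16 and *Gabrr1* at -0.45 ± 0.16. *Grin3a*, *Gabbr1* and *Grin2d* were also among the 7. This fit holds the samples of both stimulation comparisons.

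**Figure D5:**
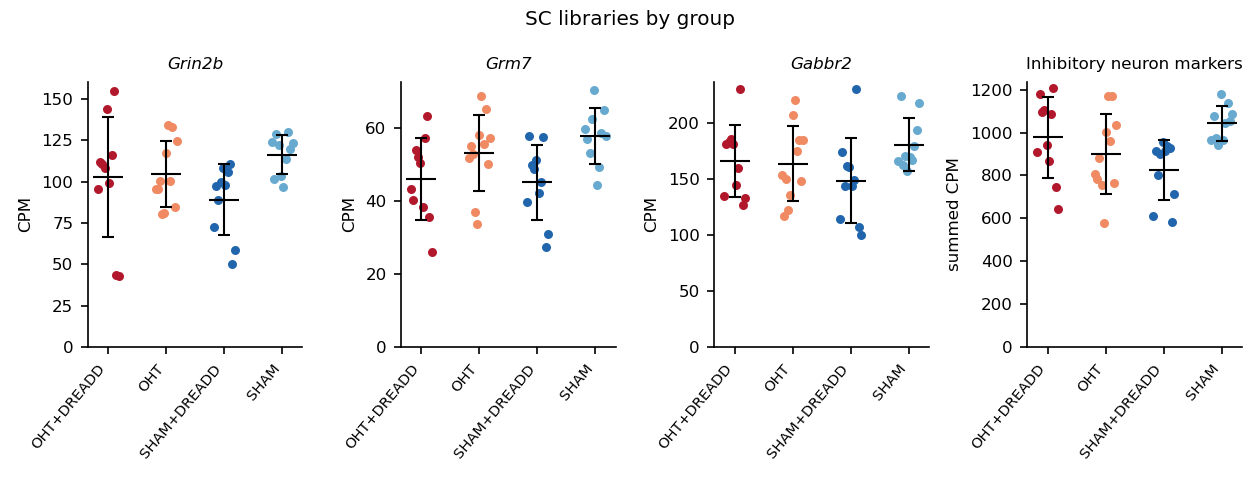
CPM of *Grin2b*, *Grm7* and *Gabbr2*, and the summed CPM of 4 inhibitory neuron markers, in each SC library by group, 1 point per library, with the mean and SD in black. The marker sum runs from 585 to 958 CPM in SHAM+DREADD and from 942 to 1180.5 CPM in SHAM.

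Genes that build, anchor or feed these receptors were followed as lists, chosen by function and not by how they moved. Of 24 AMPA and kainate auxiliary genes, 19 excitatory and 17 inhibitory postsynaptic scaffold genes and 18 genes of transmitter synthesis and transport, 0 were called in any of the 12 comparisons. Depending on the comparison, 0% to 2.9% of all genes were called. In SC SHAM+DREADD against SHAM, 5 of 23 auxiliary genes tested, 4 of 19 excitatory scaffold genes and 6 of 16 transmitter genes were lower at an unadjusted p under 0.05, against 1 of 16 inhibitory scaffold genes. Of all genes, 4.92% were lower at that p. Their median log2 fold changes were -0.09, -0.11, -0.13 and -0.02. The lowest p values were those of *Gad1* (-0.33 ± 0.08, adjusted p = 0.200) and *Gad2* (-0.27 ± 0.08, adjusted p = 0.270), the GABA-synthesizing enzymes, and of *Shisa9* and *Cnih2*, AMPA receptor auxiliaries (-0.33 ± 0.10 and -0.30 ± 0.09, adjusted p = 0.289 each). *Gad1* and *Gad2* are also inhibitory neuron markers, and all 4 of those markers were lower at an unadjusted p under 0.05 here. The transmitter list is thus not separate from the inhibitory neuron markers. In the RGC sort, at most 2 genes of any of these lists were lower and at most 2 higher at an unadjusted p under 0.05 in a comparison. Of all genes, 2.96% to 4.74% were lower and 2.2% to 5.46% higher.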

How the data were processed

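RNA was measured in RGC sorts (Smart-Seq2) and SC lysates (QuantSeq 3′). Per the labels and methods, the authors checked reads with FastQC 0.11.7, aligned them to mm10 with HISAT2, dropped reads with several alignments, handled files with SAMtools 1.5, counted with HTSeq and tested with edgeR 3.14. The deposited values are raw counts per Ensembl gene, without normalization. Annotation release and strand setting are not given in the sources used here. All columns were used, and 42548 identifiers had a symbol in GENCODE M21, which gave coordinates and lengths.

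Each pair of groups was fitted alone, and all 4 groups of a tissue for additive and interaction fits, with edgeR 4.0.16 in R 4.3.3 (more than 5 reads in at least 2 samples, TMM, glmQLFit and glmQLFTest, prior count 2, Benjamini-Hochberg over all genes tested, adjusted p of at most 0.1). The study also asks a log2 fold change of 1.3 in RGCs and 0.5 in SC. SE is the log2 fold change divided by the root of F. CPM are over all counts. Marker relations used log2(CPM + 1), deviations from group means and 100000 permutations, two-sided. Replicates were 1 retina or colliculus each. Same-numbered samples did not deviate together (median r of 0.00 in RGC and 0.03 in SC), so numbers were not taken as pairs. No libraries were near-duplicates. Alternatives were DESeq2 size factors, other filters, DESeq2 1.42.0, limma-voom 3.58.1, the replicate block, sex, rod, bipolar or inhibitory marker covariates, 1 fit of all groups, a smaller prior count and leaving out libraries. The code was tested on simulated data. Python 3.11.15 and pandas 2.3.3 were used.

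Values per group are given for the 3 members of lowest p in each comparison and the most abundant of each family, and members with 5 or fewer counts in a tissue are named. Of other lists, up to 4 genes of lowest p are named. Other members named were chosen after their values were seen. Members and lists were chosen with earlier results of these data known. Some genes that the rule names are not reported here, and counts over members and marker sums include them. Floors cover counting error only.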

Additional observations from a re-analysis of the deposited data

Results flagged for a closer look

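A single library stood far from the other 9 of its group by Dixon's test in 18 of 100 groups of 10 libraries. The groups covered 34 pairs of member and tissue. Chance gives about 5% for normally distributed values, but the test was run on untransformed CPM. In all 18 the outlying library was the highest. For *Gabrq* and *Grin2a* in SHAM+DREADD of the sort, the other 9 libraries had no reads. The 18 can therefore not be set against the 5%, and no excess is claimed. Most of the 18 were members of low level. In the RGC sort these were *Gabrq* at 3.19 CPM in OHT+DREADD and 1.22 CPM in SHAM+DREADD, *Glra4* at 9.82 CPM in OHT+DREADD, 9.19 CPM in SHAM+DREADD and 4.32 CPM in SHAM, *Grik3* at 1.76 CPM in OHT+DREADD, *Grik4* at 1.47 CPM in OHT+DREADD and 2.34 CPM in SHAM+DREADD, *Grin2a* at 1.39 CPM in OHT+DREADD and 1.36 CPM in SHAM+DREADD, and *Gabrg3* at 16.9 CPM in OHT+DREADD, each the highest of its group.

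Among well-measured members of the sort, *Gabrr1* reached 725 CPM in 1 OHT+DREADD library, against 425 CPM in the next highest. *Grin1* reached 59.4 CPM in 1 SHAM+DREADD library and 74.1 CPM in 1 SHAM library, against 36.3 and 40.5 CPM in the next highest. In the SC the highest library stood apart for *Grin1* (135 CPM) and *Gabrq* (8.28 CPM) in SHAM+DREADD, and for *Grin2a* in SHAM+DREADD (9.76 CPM) and in SHAM (13.4 CPM).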

How the results depend on the processing

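Of the members of the 3 lowest p in each comparison, the others not being run, no log2 fold change turned its direction under any alternative. Here limma-voom, DESeq2 size factors, filterByExpr, the replicate block, 1 fit of all groups and leaving out libraries called 0 members in each comparison they were run for. A smaller prior count changes the log2 fold changes but not the p values, so it could not change which members were called. Without a filter on low counts, where 2505 to 3506 genes were called, 4 members were called in RGC OHT vs SHAM, 2 in RGC OHT+DREADD vs OHT, 3 in RGC SHAM+DREADD vs SHAM, 1 in RGC stimulated vs unstimulated and 1 in RGC OHT vs no OHT. DESeq2 called 1 in RGC OHT+DREADD vs OHT (29 of all genes) and 1 in the SC interaction (26). Sex as a covariate gave 1 in the RGC interaction (421), 1 in RGC OHT vs no OHT (545), 1 in SC OHT+DREADD vs OHT (146) and 1 in SC stimulated vs unstimulated (433). The rod sum gave 1 in RGC OHT vs no OHT (586), and the bipolar sum, chosen after seeing the data, 2 there, 1 in the RGC interaction and 1 in RGC stimulated vs unstimulated (448 to 531 of all genes). In the SC, the 13 members lower in SHAM+DREADD than SHAM became 4 with sex, 0 with the inhibitory marker sum, 12 with the replicate block and 8 to 15 without 1 library. The causes were not tested. With the block, the 7 members lower in stimulated SC became 13. Samples share only a number (correlations of same-numbered deviations from -0.21 to 0.25). Per kb of the longest coding transcript, chosen after seeing the data, *Gabrr2* and *Gabrr1* still led the sort at 157 and 142 CPM per kb. At 2926193 counts for a median SC library, members under 5 CPM rest on few reads.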
